A study of Mus musculus with 8 samples.

Results

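The expression of vasopressin, oxytocin, and their receptors was compared among 4 hypothalamic nuclei of adult female mice. The genes were *Avp*, *Oxt*, *Avpr1a*, and *Oxtr*, found through the RefSeq accession that the scanner files give to each probe. They had 1 probe each, 4 of the 55681 probes on the array and 4 of the 20284 genes that could be named. The arcuate nucleus (Arc), ventromedial hypothalamus (VMH), dorsomedial hypothalamus (DMH), and lateral hypothalamus (LH) were cut out by laser microdissection from C57BL/6 females (C57BL/6J in the methods) aged 3 months, and the labels give no treatment, transgene, or deletion for any group. The methods name 2 mice as the source, and each nucleus was measured on 2 arrays, 8 in all (Arc1, Arc2, VMH1, VMH2, DMH1, DMH2, LH1, and LH2). The sources do not state which arrays share a mouse, so p-values measure the spread between these arrays. The RNA was amplified as a whole transcriptome and read in 1 color. The purpose of the study was to find genes selective for a nucleus, and the present comparison asks how this peptide system was distributed over the 4 nuclei.

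Vasopressin and oxytocin are closely related neuropeptides, each cut from a larger precursor that also holds a carrier protein, a neurophysin. Magnocellular neurons of the paraventricular nucleus (PVN) and the supraoptic nucleus make most of both and send them along axons to the posterior pituitary, where vasopressin is released to retain water and oxytocin for milk ejection and labor. Vasopressin is also made in the suprachiasmatic nucleus (SCN). None of these nuclei is among the 8 arrays. Within the brain both peptides act through receptors coupled to Gq proteins, chiefly the V1a receptor (*Avpr1a*) and the oxytocin receptor (*Oxtr*), and oxytocin receptors of the ventromedial hypothalamus are known for their part in female sexual behavior.

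*Avp* and *Oxt* lie next to each other on mouse chromosome 2, on opposite strands, with no other gene of the RefSeq table between them. The 250 bases before each start site are shown because both peptide genes had their highest signal on the same array, LH2. They were taken from RefSeq on the build GRCm38.p6, are written 5′ to 3′ on the strand of the gene, and end at the base before the start. The *Avp* promoter lies at chr2:130582589-130582838 on the minus strand and the *Oxt* promoter at chr2:130575919-130576168 on the plus strand. Capitals mark the matches to the E-box CACGTG, a site known to bind the clock factors, and to the nuclear receptor half-site TGACC, searched on both strands and so also written GGTCA. No match overlapped another.
Avp: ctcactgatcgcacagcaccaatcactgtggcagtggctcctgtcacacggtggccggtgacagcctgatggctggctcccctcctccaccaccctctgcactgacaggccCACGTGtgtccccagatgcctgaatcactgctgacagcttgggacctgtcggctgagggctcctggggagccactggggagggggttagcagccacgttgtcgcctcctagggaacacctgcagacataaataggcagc
Oxt: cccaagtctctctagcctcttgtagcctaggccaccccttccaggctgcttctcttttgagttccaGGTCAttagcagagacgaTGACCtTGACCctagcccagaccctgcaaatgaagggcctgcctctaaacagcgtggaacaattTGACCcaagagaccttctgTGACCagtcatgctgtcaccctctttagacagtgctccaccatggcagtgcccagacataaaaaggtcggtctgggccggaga
The *Avp* promoter held 1 E-box, which began 139 bases before the start, and no half-site. The *Oxt* promoter held 5 half-sites, which began 184, 166, 160, 102, and 83 bases before the start, and no E-box. In windows of the same length, 6.02% of 32851 promoters held an E-box, 35.2% held a half-site, and 1.51% held 3 or more half-sites. The core of the cAMP response element, TGACG or CGTCA, was in neither promoter and in 17.8% of all. Among the receptor genes, whose promoters are not printed, the *Avpr1a* promoter held 1 such core, 165 bases before the start. The *Oxtr* promoter held 1 E-box and 1 half-site, 43 and 97 bases before the start. These are matches of letters and were not tested for binding.

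Signals are given as scaled signal intensities, which are the deposited signals of a probe after division by the 75th percentile of its array. They have no unit and are comparable between arrays for 1 probe. Levels of different probes were not compared, except within the summed signals of the marker lists, where the brightest probes weigh most. A probe counts as measured on an array when the scanner software called it well above background there. The lowest measurable scaled signal ranged from 79.3 (LH1) to 132 (LH2), and 47.1% to 52.7% of the spots of an array were well above background. Arrays of the same nucleus correlated at 0.971 to 0.981 in the Arc, VMH, and DMH and at 0.938 in the LH over 28896 probes, and LH2 correlated more with DMH2, at 0.954, than with LH1. LH1 had 364 spots marked as outliers against 126 to 161 on the other arrays. With 2 arrays per nucleus, precision is limited by their number. Differences were tested with limma on the log2 of the scaled signals in one fit of all 8 arrays. The tests covered the 28896 probes that some nucleus measured on its 2 arrays, with adjustment of p-values over all of them by the method of Benjamini and Hochberg with a threshold of 0.05. All 4 probes were among them, *Oxt* through the Arc alone. In tissue samples, fewer cells of a type and less RNA per cell cannot be told apart.

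The Arc, VMH, and DMH were recognizable by the genes that define them, whereas the LH markers did not separate the LH from the DMH. *Agrp*, the agouti-related peptide of arcuate neurons, had signals of 53020 and 47181 on the Arc arrays and of at most 581 elsewhere. *Nr5a1*, a transcription factor of the ventromedial nucleus, had 12163 and 11694 on the VMH arrays and at most 688 elsewhere. *Npvf*, a peptide precursor of the dorsomedial nucleus, had 3943 and 4786 on the DMH arrays. These 3 genes were highest in the nucleus they mark. *Hcrt*, the orexin precursor of lateral hypothalamic neurons, had 105971 and 116750 on the LH arrays, 55940 and 51283 on the DMH arrays, and at most 684 elsewhere. *Pmch*, the other LH marker, had 17650 and 17005 on the LH arrays and 16253 and 11631 on the DMH arrays. Neither was called between the LH and the DMH (limma adjusted p of 0.290 for *Hcrt* and 0.561 for *Pmch*).

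*Avp* was measured on all 8 arrays and stood out on 1 of them. Its signals were 351 and 270 in the Arc, 213 and 105 in the VMH, 171 and 221 in the DMH, and 279 and 2432 in the LH. LH2 was 6.94-fold above the next highest array, Arc1, whereas LH1 lay between the Arc arrays, so the LH overlapped the Arc. The Arc averaged 310 ± 57.1, the VMH 159 ± 76.2, the DMH 196 ± 35.5, and the LH 1356 ± 1523 (SD, n = 2 arrays each). The difference between the LH and the VMH, the highest and lowest nuclei on the log2 scale, was 2.46, and *Avp* did not pass the limma F-test across the nuclei (adjusted p = 0.315). Among the pairs of nuclei, LH minus VMH was 2.46 ± 0.91 (log2, SE) with a limma adjusted p of 0.184, and LH minus DMH was 2.08 with 0.334. The arrays of the VMH and the DMH overlapped, and the remaining pairs had a limma adjusted p of 0.361 or more. These values turned on the LH arrays. With 1 array left out, the remaining array of its nucleus has no spread of its own and is assumed to vary like the other nuclei, in every such fit reported. Without LH1 the difference between the LH and the VMH was 4.02, with a limma adjusted p across the nuclei of 0.00979. Without LH2 it was 0.90, with 0.260, and the LH then lay below the Arc (log2 difference of -0.14).

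*Oxt* was measured on 4 of the 8 arrays, both of the Arc, VMH2, and LH2. Its signals were 6559 and 848 in the Arc, 25.4 and 1242 in the VMH, 19.0 and 27.0 in the DMH, and 109 and 8332 in the LH. The measured arrays thus fell in 3 nuclei, and in the VMH and the LH 1 array carried the signal while its partner was not well above background. Neither DMH array measured *Oxt*, so the DMH gives only a bound. The Arc averaged 3704 ± 4038, the VMH 634 ± 860, the DMH 23.0 ± 5.69, and the LH 4220 ± 5815 (SD, n = 2 arrays each), and in the Arc, VMH, and LH the SD exceeded the mean. Bounds were taken as the mean of normalized log2 values against the higher of the lowest measurable signal and the probe's own signal on each DMH array. By this, the Arc exceeded the DMH in *Oxt* at least 25.2-fold, a mean of its unequal arrays, with a bound of 70.1-fold from Arc1 alone and 9.06-fold from Arc2 alone. Taken the same way, the mean of the LH was 10.2-fold and that of the VMH 1.90-fold above the DMH. These are not strict bounds, since LH1 and VMH1 entered with their own values though not well above background. Each rested on a single array, LH2 and VMH2. Without that array neither nucleus measured *Oxt* and no bound can be given, and VMH1 lay between the DMH arrays. The fitted difference between the Arc and the DMH was 6.70 on the log2 scale, and *Oxt* did not pass the limma F-test across the nuclei (adjusted p = 0.297). The same pair had a limma adjusted p of 0.352, and *Oxt* had entered both tests because the Arc measured it. The other pairs had a limma adjusted p of 0.340 or more.

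**Figure D1:**
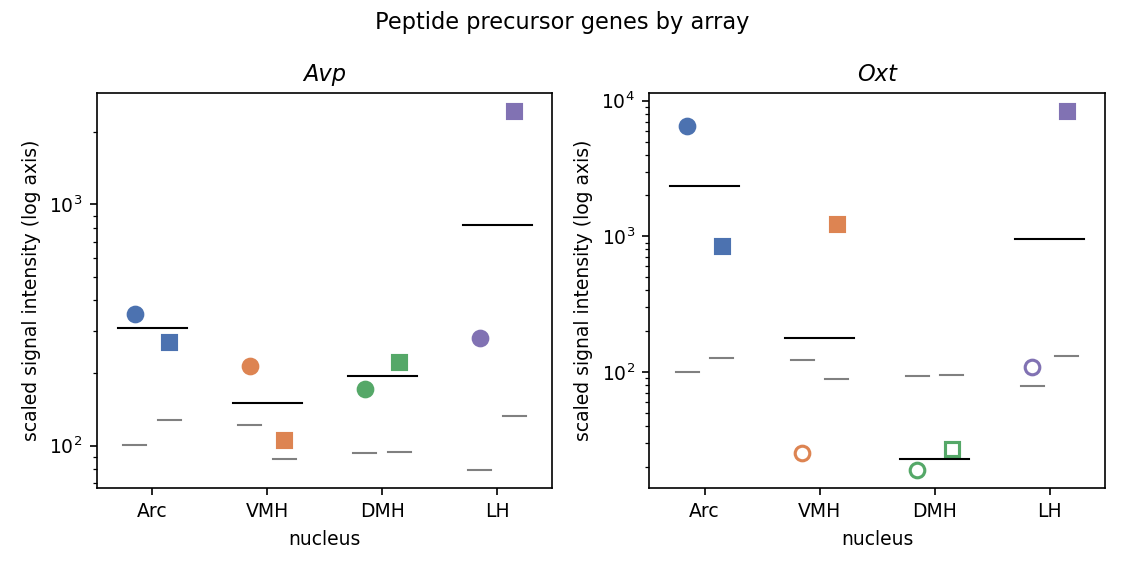
Scaled signal intensity of *Avp* and *Oxt* (log axis) by nucleus, with a circle for replicate 1 and a square for replicate 2. Filled symbols were well above background, open ones were not, grey ticks mark the lowest measurable signal of each array and black lines the geometric mean of the 2 arrays. LH2 was the highest array for both genes, at 2432 and 8332, and LH1 was at 279 for *Avp* and not well above background for *Oxt*.

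The peptide genes differed widely between the 2 arrays of some nuclei. In the VMH, *Oxt* was at least 10.2-fold higher on VMH2 than on VMH1, with VMH1 set at its lowest measurable signal. In the LH, *Oxt* was at least 76.5-fold higher on LH2 than on LH1, which was not well above background. In the Arc, where both arrays measured it, *Oxt* was 7.73-fold higher on Arc1 than on Arc2, and 0.0588% of the probes tested differed as much. The direction was not shared, since *Oxt* was higher on replicate 2 in the VMH and the LH and on replicate 1 in the Arc. *Avp* differed 8.72-fold between the LH arrays, in the same direction as *Oxt*, and 1.31% of the probes differed as much. In the Arc, where *Oxt* differed 7.73-fold, *Avp* differed 1.30-fold. In the VMH the 2 genes ran opposite ways, with *Avp* 2.02-fold higher on VMH1. Over all nuclei, the residual SD of *Avp* was 1.18 on the log2 scale, exceeded by 1.80% of the probes.

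**Figure D2:**
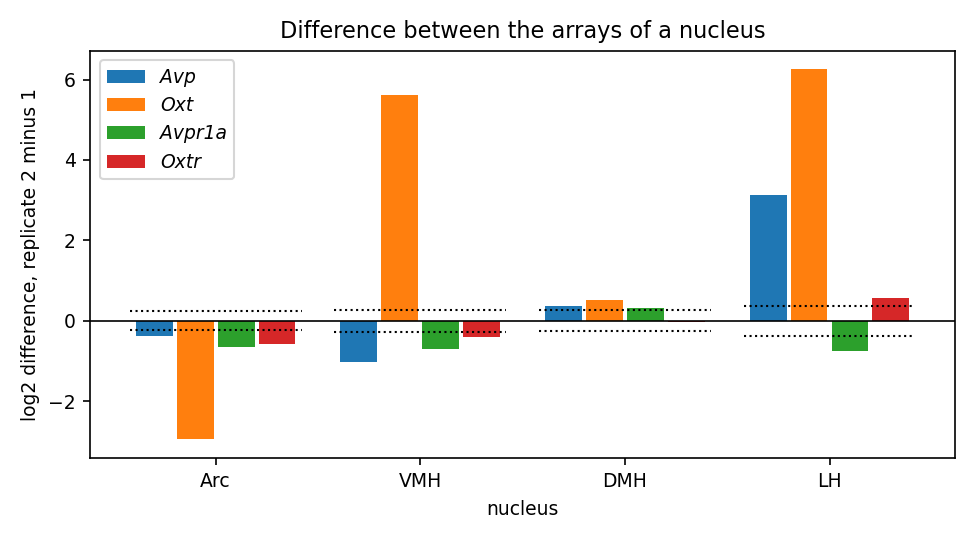
Log2 difference between replicate 2 and replicate 1 for the 4 genes in each nucleus, as bars from 0. Dotted lines mark plus and minus the median absolute difference over the 28896 probes tested in that nucleus, which ranged from 0.23 in the Arc to 0.38 in the LH. The *Oxt* bars reach -2.95 in the Arc, 5.61 in the VMH, and 6.26 in the LH, where the lower array of the VMH and of the LH was not well above background, and the bars of both receptors stay within 0.75 of 0.

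Of the 4 genes, the 2 receptors passed the limma F-test across the nuclei, against 8.34% of all probes tested. *Avpr1a*, the V1a vasopressin receptor, was highest in the DMH and the LH, lower in the Arc, and not measured in the VMH. Its signals were 219 and 139 in the Arc, 29.7 and 18.4 in the VMH, 477 and 590 in the DMH, and 673 and 402 in the LH. Both VMH arrays were not well above background, both Arc arrays lay above them, and all 4 arrays of the DMH and the LH lay above the Arc, with the DMH within the range of the LH. The Arc averaged 179 ± 56.9, the VMH 24.0 ± 7.99, the DMH 533 ± 79.8, and the LH 538 ± 191 (SD, n = 2 arrays each). The F-test gave an adjusted p of 0.00295 by limma. An exact permutation test of F over the 105 divisions of the 8 arrays into 4 pairs gave p = 0.0286, where the smallest possible p is 0.00952. The permutation p is that of this probe alone and was not adjusted over probes. The methods' one-way analysis of variance gave an adjusted p of 0.0582.

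By pairs, *Avpr1a* was higher in the DMH, the LH, and the Arc than in the VMH. The DMH exceeded the VMH at least 5.10-fold, and the fitted log2 difference was 4.51 (limma adjusted p = 0.00321). *Avpr1a* was the 1 gene of the 4 called in this pair, where 2.04% of all probes were called, 0.945% as higher and 1.10% as lower in the DMH. The LH exceeded the VMH at least 5.01-fold, and the fitted log2 difference was 4.48 (limma adjusted p = 0.00253). With dim signals raised to the lowest measurable one, DMH minus VMH was 2.35 and LH minus VMH 2.32 (limma adjusted p of 0.0112 and 0.00793). Both calls remained with every array left out in turn and were lost with the Tukey-Kramer test (adjusted p of 0.249 and 0.167). The Arc exceeded the VMH at least 1.68-fold, with a bound of 2.11-fold from Arc1 alone and 1.33-fold from Arc2 alone. The fitted log2 difference of VMH minus Arc was -2.90 (limma adjusted p = 0.00779), and this p belongs to the fitted difference and not to the bound. *Avpr1a* was the 1 gene of the 4 called in this pair. Of all probes, 5.92% were called there, 3.52% as higher and 2.40% as lower in the VMH. With dim signals raised to the lowest measurable one, the log2 difference of VMH minus Arc was -0.74 and not called (limma adjusted p = 0.271), and it was also not called without Arc1 (0.0653) or without VMH2 (0.0570). LH minus Arc was 1.58 ± 0.38 (log2, SE) with a limma adjusted p of 0.0470. That call was lost with 7 of the 8 arrays left out in turn, the exception being LH2, and the difference ranged from 1.21 to 1.95 over the 8 fits. DMH minus Arc was 1.61 ± 0.38 with a limma adjusted p of 0.129, and 2.09 with 0.0382 when the arrays were not scaled. LH minus DMH was -0.028, with a 95% interval from -0.92 to 0.87.

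*Oxtr*, the oxytocin receptor, was measured on all 8 arrays and was lowest in the LH. Its signals were 16931 and 11243 in the Arc, 19893 and 15026 in the VMH, 11910 and 11720 in the DMH, and 4400 and 6458 in the LH. Both LH arrays lay below all 6 others, the Arc overlapped the VMH, and the DMH lay within the range of the Arc. The Arc averaged 14087 ± 4022, the VMH 17459 ± 3441, the DMH 11815 ± 134, and the LH 5429 ± 1455 (SD, n = 2 arrays each). The F-test gave an adjusted p of 0.0467 by limma, close to the threshold. The exact permutation test of F gave p = 0.0571, also not adjusted over probes. The limma adjusted p was 0.0707 with the replicate number as a block, and the call of the F-test was lost with 7 of the 8 arrays left out in turn, the exception being LH2.

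By pairs, *Oxtr* was lower in the LH than in the VMH and the Arc. LH minus VMH was -1.70 ± 0.30 (log2, SE) with a limma adjusted p of 0.0255. In this pair 2 of the 4 genes were called, *Avpr1a* higher and *Oxtr* lower in the LH, against 5.28% of all probes (3.04% higher, 2.24% lower). The call of *Oxtr* was lost with either VMH array, either DMH array, or LH1 left out, when the difference ranged from -1.90 to -1.42. LH minus Arc was -1.37 ± 0.30 with a limma adjusted p of 0.0354, and here too *Avpr1a* was called higher and *Oxtr* lower in the LH, 2 of the 4 genes against 9.34% of all probes (6.02% higher, 3.33% lower). That call was lost with each array but LH2 left out, and the limma adjusted p was 0.05004 with the replicate number as a block. LH minus DMH was -1.15 ± 0.30 with a limma adjusted p of 0.162 and a 95% interval from -1.86 to -0.44. From high to low the order was VMH, Arc, DMH, and LH, and no 2 neighbors in it differed by the test. Without scaling of the arrays the DMH lay above the Arc (log2 difference of 0.26 against -0.22), and this scaling step moved the median of all probes tested by 0.48 in that pair.

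No gene of the 4 was called between the DMH and the Arc, where 1.26% of all probes were (0.727% higher and 0.533% lower in the DMH). None was called between the LH and the DMH, where 0.924% of all probes were (0.664% higher and 0.260% lower in the LH). Without adjustment, the limma p was under 0.05 for *Avpr1a* between the DMH and the Arc, against 10.8% of all probes, and for *Oxtr* between the LH and the DMH, against 15.5%. It was also under 0.05 for *Oxt* between the DMH and the Arc, which is not counted, since *Oxt* was tested because the Arc measured it and neither DMH array did. The Tukey-Kramer test called 0 of the 4 genes in both pairs, and 4 and 0 of all probes in these pairs.

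**Figure D3:**
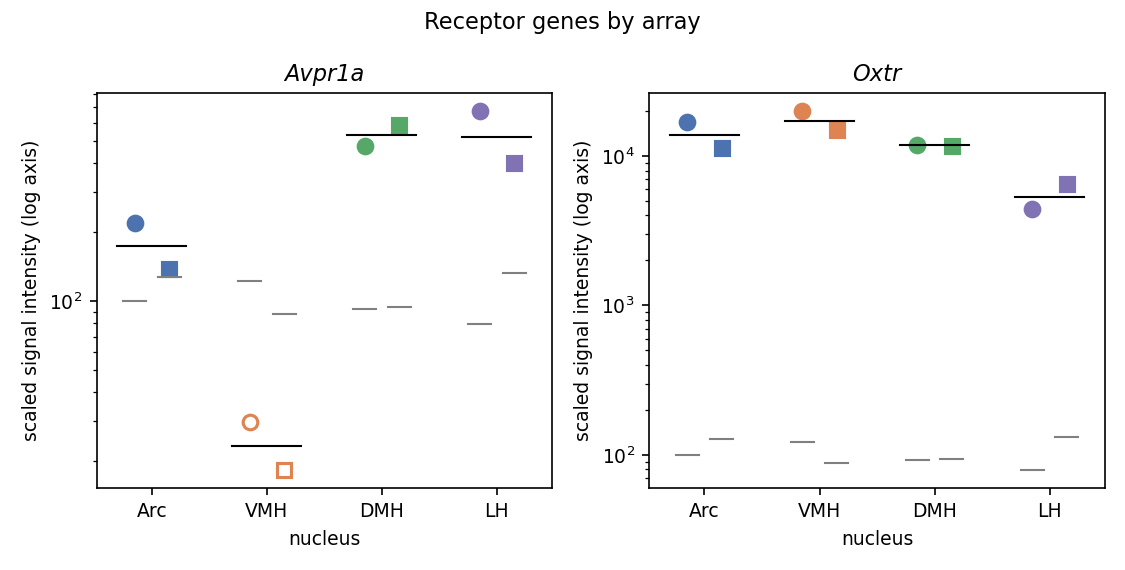
Scaled signal intensity of *Avpr1a* and *Oxtr* (log axis) by nucleus, with the symbols of the plot of the peptide genes (circle, replicate 1; square, replicate 2; open, not well above background; grey tick, lowest measurable signal; black line, geometric mean). *Avpr1a* was at 29.7 or less in the VMH and between 402 and 673 in the DMH and the LH, and *Oxtr* was at 6458 or less in the LH and at 11243 or more on the other arrays.

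**Figure D4:**
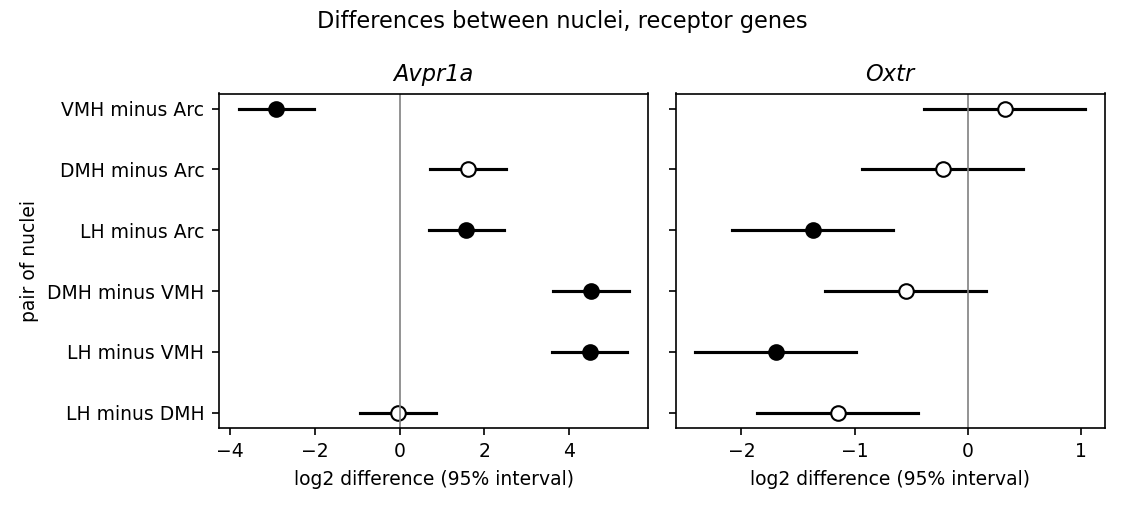
Log2 differences between pairs of nuclei for *Avpr1a* and *Oxtr*, with 95% intervals from the limma fit and filled points where the adjusted p was under 0.05. The 4 filled points of *Avpr1a* are VMH minus Arc, LH minus Arc, DMH minus VMH, and LH minus VMH, and the 2 filled points of *Oxtr* are LH minus Arc and LH minus VMH.

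The other vasopressin receptors were below the measurable range. *Avpr1b*, the V1b receptor best known from the anterior pituitary, had 1 probe, and *Avpr2*, the kidney V2 receptor that controls water uptake, had 2. None of these 3 probes was well above background on any array, and their signals ranged from 19.0 to 29.5 for *Avpr1b* and from 24.2 to 108 for *Avpr2*.

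The genes that process, release, or break down the peptides were measured throughout. All 9 probes of 6 genes were well above background on all 8 arrays, and 2 of them differed across the nuclei by the F-test, against 8.34% of all probes. The median difference between the highest and lowest nucleus was 0.68 on the log2 scale, against 0.65 over all probes tested. *Pcsk1*, a convertase that cuts peptide precursors, had signals of 2839 and 3048 in the LH and of 990 to 1830 elsewhere. It was higher in the LH than in each other nucleus, with log2 differences of 0.81 to the Arc, 1.56 to the VMH, and 1.22 to the DMH (limma adjusted p of 0.0475, 0.0083, and 0.0470). *Pcsk2*, a second convertase, was higher in the VMH and the LH than in the Arc by 1.22 and 1.18 on one probe (limma adjusted p of 0.0315 and 0.0269). Its second probe was not called and stood at 250 on LH1 against 4896 on LH2. Carboxypeptidase E (*Cpe*), the amidating enzyme *Pam*, *Cd38*, which is needed for oxytocin release, and *Lnpep*, the aminopeptidase that degrades oxytocin, did not pass the F-test (limma adjusted p of 0.265 or more).

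Genes of the Gq pathway, into which both receptors signal, were tested on 18 of 21 probes and 4 passed the F-test, against 8.34% of all probes. The median difference between the highest and lowest nucleus was 0.97 on the log2 scale, against 0.65 over all probes tested. Against the Arc, 8 probes of 5 genes were higher in the VMH and 0 were lower, where 3.52% of all probes were higher. Also against the Arc, 4 of these probes were higher in the LH and 1 in the DMH, where 6.02% and 0.727% of all probes were, and 0 were lower. Between the VMH and the DMH or the LH, 1 probe was called, that of *Itpr1*. The 8 probes were both probes of *Plcb1*, *Plcb4*, and *Prkcb* and the probes of *Itpr1* and *Itpr2*, which encode phospholipases C beta, a protein kinase C, and the calcium release channels of the endoplasmic reticulum. *Itpr1* had signals of 27984 and 23316 in the VMH and of 8541 to 10090 on the 6 other arrays. The log2 difference was 1.52 for VMH minus Arc, -1.35 for DMH minus VMH, and -1.49 for LH minus VMH (limma adjusted p of 0.00805, 0.0221, and 0.0108). The G protein genes *Gnaq* and *Gna11* did not pass the F-test (limma adjusted p of 0.646 and 0.743). Of the 7 probes of neuron markers, 3 were also higher in the VMH than in the Arc, all of *Rbfox3*, and the summed signal of the 7 was 172957 to 193986 in the VMH and 119700 to 122667 in the Arc. Its part in the difference was not tested.

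Markers of the nuclei that make vasopressin and oxytocin were set beside the peptide signals. The methods report a check by quantitative RT-PCR of *Agrp*, *Nr5a1*, *Hcrt*, and *Crh* that found no contamination from neighboring nuclei. No array measured *Sim1*, a transcription factor needed for paraventricular neurons, whose signals were 21.1 to 72.2, with 36.2 on LH1 and 72.2 on LH2. *Otp*, a homeobox factor of neurosecretory neurons, had 1896 and 1845 in the Arc, 76.9 and 122 in the VMH, 490 and 419 in the DMH, and 591 and 513 in the LH, and was higher in the Arc than in the VMH, DMH, and LH (limma adjusted p of 0.000608, 0.0173, and 0.00995). The paraventricular peptides *Crh* and *Trh* were measured in the DMH and the LH on both arrays, *Crh* at 2026 to 4931 and *Trh* at 5586 to 9818, and were not measured in the Arc, where *Oxt* was. *Arnt2* and *Pou3f2*, other factors of these neurons, did not pass the F-test (limma adjusted p of 0.173 and 0.435), and *Pou3f2* had 24.9 on LH1 and 313 on LH2. *Avp* and *Oxt* were higher on LH2 than on LH1. Of the 4 paraventricular probes, *Otp*, *Crh*, and *Trh* were measured in the LH and lower on LH2, and *Sim1*, not measured, was not lower. The summed signal of the 4 was 2022 to 2072 in the Arc, 236 to 425 in the VMH, 8131 to 12821 in the DMH, and 9898 to 12077 in the LH. *Trh* carried most of the sum in the DMH and the LH, and without it the list gave 1903 to 1957 in the Arc, 192 to 379 in the VMH, 2545 to 3003 in the DMH, and 4208 to 5558 in the LH, so that the DMH no longer overlapped the LH.

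Of the 7 suprachiasmatic probes, 3 were measured on both LH arrays. On LH1 and LH2, *Lhx1* had 608 and 657, *Six3* 346 and 443, and *Rgs16* 246 and 286. The list summed to 1467 on LH1 and 1697 on LH2, and *Vip*, its defining peptide, was measured on no array (18.8 to 28.3). *Prok2* had 599 and 1319 and *Six6* 900 and 1293 in the Arc and neither was measured on the other arrays. The suprachiasmatic list summed to 4076 to 6095 in the Arc, 2030 to 2067 in the VMH, and 1539 to 1619 in the DMH. In it, 5 of the 5 probes tested passed the F-test, against 8.34% of all probes. Of these, *Prok2* and *Six6* had entered the test only because the Arc measured them. Without *Six3*, its brightest probe over the 8 arrays, the list gave 2466 to 3440 in the Arc, 769 to 1002 in the VMH, 1354 to 1400 in the DMH, and 1122 to 1253 in the LH, so that the VMH lay below the DMH and the LH rather than above them. The part of either list in the *Avp* and *Oxt* signals was not tested.

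**Figure D5:**
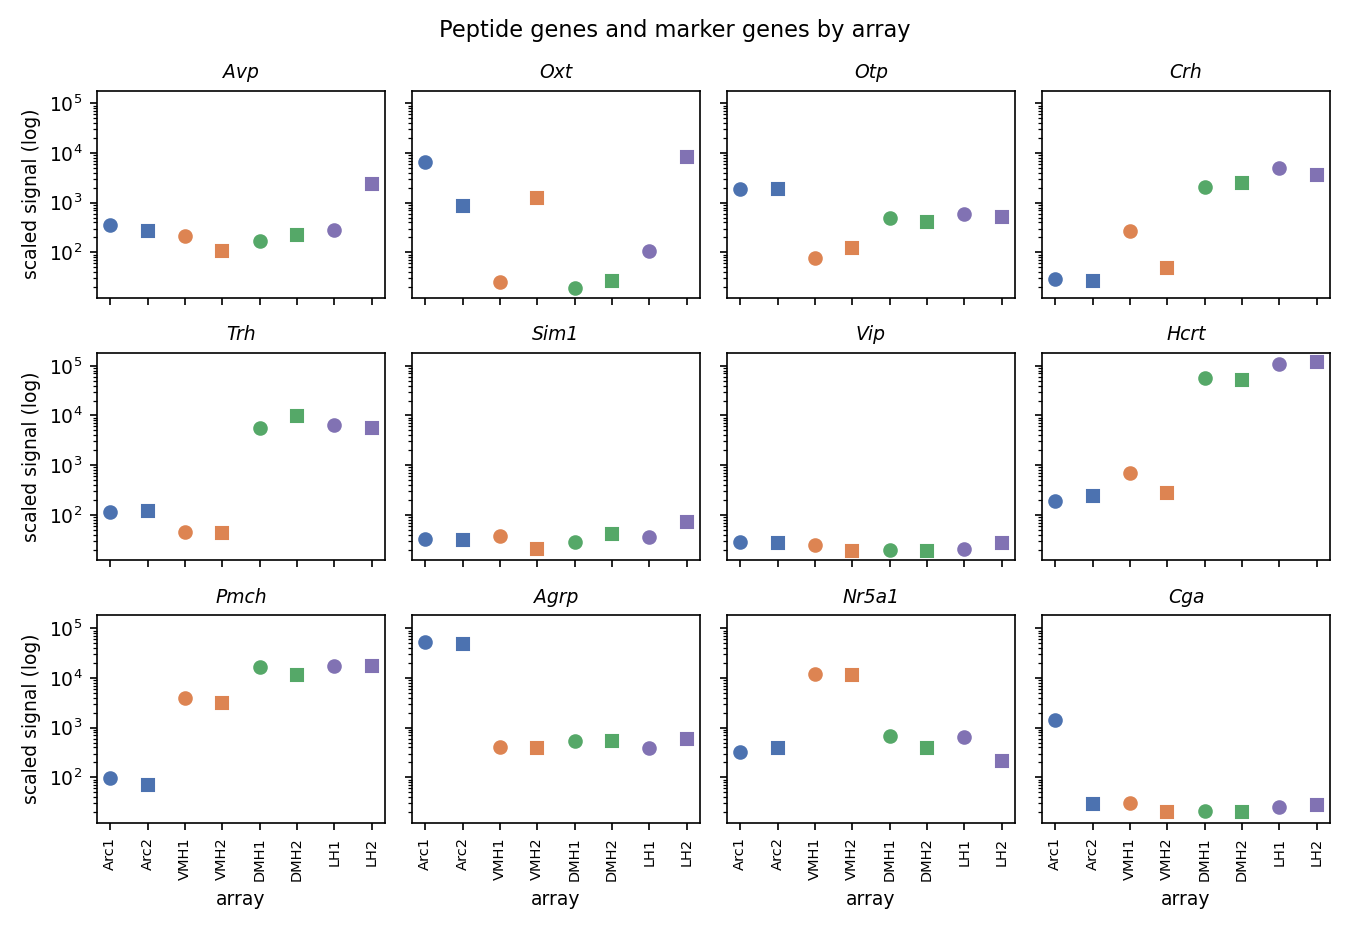
Scaled signal intensity (log axis) of *Avp*, *Oxt*, and 10 marker genes on the 8 arrays, with circles for replicate 1 and squares for replicate 2. *Otp*, *Crh*, *Trh*, *Agrp*, *Nr5a1*, *Hcrt*, and *Pmch* differed by under 2-fold between the arrays of the nucleus in which each was highest, and *Cga* was at 1425 on Arc1 and at 30.4 or less on the other arrays.

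Markers of the pituitary and of glia were also set beside the 4 genes. *Cga*, the common subunit of the pituitary glycoprotein hormones, was measured on Arc1 alone, at 1425, which was also the Arc array with the higher *Oxt* signal, while *Gh*, *Prl*, and *Tshb* were measured on none. The pituitary list summed to 1525 on Arc1 and 112 on Arc2, and between 77.8 and 179 on the other arrays. In the LH, where *Oxtr* was lowest, 9 of the 11 probes of oligodendrocyte markers were higher than in the Arc and 1 was lower, against 6.02% and 3.33% of all probes. Among the 9, a *Mobp* probe at 783 and 606 in the LH had entered the test only because the LH measured it. The summed signal of the 11 probes was 121473 to 129079 in the LH, 19705 to 26344 in the Arc, 41445 to 49585 in the VMH, and 34638 to 35853 in the DMH. Astrocyte markers summed to 81616 to 86322 in the LH and 44720 to 62353 elsewhere, with 3 of 10 probes tested past the F-test. Of these 3, 2 were probes of *Gfap*, which were highest in the Arc (1367 and 1666 on one, 3735 and 6337 on the other) and had 372 and 849, and 2412 and 3109, in the LH. Endothelial markers summed to 4940 to 6617 in the LH and 2418 to 4302 elsewhere, with 1 of 4 probes past it. Microglia markers summed to 87085 to 87900 in the LH and 102315 to 124655 elsewhere, and 0 of 7 probes passed it. One *Csf1r* probe made up most of that sum, and the other 8 probes summed to 19433 to 24780 in the LH and 14365 to 17816 elsewhere, so the direction turned without it. Ependymal and tanycyte markers, led by *Rax* and *Col23a1*, summed to 5981 to 6145 in the Arc and 1835 to 2512 elsewhere, with 3 of 4 probes past the F-test. Of these, *Rax* had entered the test only because the Arc measured it on both arrays. Over all probes tested, 8.34% passed the F-test. The part of these cell types in the results was not tested.

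For each of the 4 genes, named genes among the 5 with the most alike signals over the 8 arrays are given as a description, since these correlations were picked as the highest among all probes tested and share the arrays. *Avp* was followed by *Selenom*, *Serinc5*, *Cd164*, *Trak2*, and *Metrn*, with r between 0.968 and 0.983 on the log2 scale. All 5 had their highest signal on LH2, as *Serinc5* with 5974 there and 1898 to 2742 on the other arrays. The genes given for *Oxt* are *Mgp*, *Pop5*, *Pld4*, and *Erich1*, with r between 0.915 and 0.946, and *Mgp*, which encodes matrix Gla protein, had 2031 on Arc1, 1778 on LH2, and 289 to 831 on the others. *Avpr1a* was followed by *Csta2*, *Lrrc55*, *Foxp2*, *Hmx2*, and *Flrt3*, with r between 0.975 and 0.979. The transcription factor *Foxp2* had signals of 727 and 593 in the DMH, 431 and 286 in the LH, 145 and 104 in the Arc, and 29.9 and 19.0 in the VMH, and was not well above background on the Arc and VMH arrays. Those given for *Oxtr* are *Dhx40*, *Gpsm3*, *Ifna5*, and *Unc93a2*, with r between 0.967 and 0.975, and all 4 had their 2 lowest signals on the LH arrays. *Foxp2*, *Ifna5*, and *Unc93a2* were measured on 4 of the 8 arrays each, *Csta2* and *Erich1* on 5, and *Pop5*, *Lrrc55*, and *Hmx2* on 7.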

How the data were processed

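Total RNA of the microdissected nuclei was amplified with the WTA2 kit, labelled chemically, and hybridized to 8 arrays of 1 slide of the Agilent mouse design 028005, read in 1 scan. The authors deposited, for every spot, an intensity from Agilent Feature Extraction (version 10.7.3.1 per the file headers, 11.5.1.1 per the submitters' processing notes and the methods). The software had subtracted the background, removed spatial trends, and replaced low values by a minimum. The intensity of the deposited table of all arrays equalled the mean over the spots of a probe within 0.51 for at least 99.7% of the probes on each array, so neither was scaled between arrays. The labels name Cy3 and the methods Cy5 as the dye, and the signals are those of the red channel. The genome build behind the probes is not given in the sources used here.

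After removal of outlier spots, signals were averaged by probe, divided by the 75th percentile of the array (divisors rescaled to a geometric mean of 1), and put on the log2 scale. A probe was well above background on an array when at least as many of its spots were called so as not. limma 3.58.1 in R 4.3.3 (lmFit and eBayes, 4 residual and 3.02 prior degrees of freedom) was fitted with a mean for each nucleus to the 28896 probes (51.9%) that passed this in some nucleus on its 2 arrays. A signal not well above background entered the fit with its value. The methods state no test for the arrays. Their general rule for several groups, a one-way analysis of variance with the Tukey-Kramer test, was run as an alternative on the same log2 values, with p-values adjusted over probes. The fit was tested on simulated data.

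Of 28390 probes with a RefSeq accession, 26762 (94.3%) were named through the RefSeq gene table of GRCm38.p6, and promoter windows came from the same source. The genes named are the 4 genes, the genes of fixed lists (other vasopressin receptors, precursor processing, Gq signalling, transcription factors of neurosecretory neurons, and markers of nuclei and cell types), and for each of the 4 genes the 5 most correlated, of which 1 each for *Oxt* and *Oxtr* is not reported here. The 4 genes and the lists were chosen with earlier results of these data known. The alternatives tried were the scaling, the background correction, the source table, the filter on dim probes, outlier spots, dim signals, the replicate block, each array left out, and other tests.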

Additional observations from a re-analysis of the deposited data

How the results depend on the processing

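With 2 arrays per nucleus and signals near background for *Oxt* and *Avpr1a*, calls close to the threshold moved with most choices. Over the 24 differences between pairs of nuclei, 468 alternative values were computed, of which 415 kept both the direction and the side of the threshold, 36 lost a call, 5 gained one, and 12 changed sign, none of a called difference. No value exists for *Oxt* and *Avpr1a* under the filter on all 8 arrays, since neither was well above background on all of them. Where no value shows it, the cause of a change was not tested.

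Across the nuclei, the one-way analysis of variance left *Avpr1a* at 4.51 uncalled (adjusted p = 0.0582). *Oxtr*, at 1.70, was uncalled with no filter on dim probes (limma adjusted p = 0.0841), with the replicate block (0.0707), and by the one-way analysis of variance (adjusted p = 0.159). The exact permutation test, whose p was not adjusted over probes, gave *Oxtr* p = 0.0571. When each of the 8 arrays was omitted, the difference between the nuclei that were highest and lowest with all arrays kept ranged from 0.90 to 4.02 for *Avp* (LH minus VMH) and from 1.42 to 1.97 for *Oxtr* (VMH minus LH).

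Among the pairs for *Avpr1a*, VMH minus Arc was -0.92 with normexp (limma adjusted p = 0.0547) and -0.74 with dim signals raised (0.271), both choices that raise the dim VMH values, and -2.90 by the Tukey-Kramer test (adjusted p = 0.233). That test also left uncalled *Avpr1a* LH minus Arc at 1.58 (0.459), DMH minus VMH at 4.51 (0.249), and LH minus VMH at 4.48 (0.167), fitted values against a VMH that did not measure it, and *Oxtr* LH minus Arc at -1.37 (0.353) and LH minus VMH at -1.70 (0.363). *Avpr1a* LH minus Arc, at 1.58, was also uncalled with no filter (limma adjusted p = 0.0821) and with only the 2 nuclei fitted (0.123). *Oxtr* LH minus Arc was -1.21 without scaling (0.0582) and, at -1.37, uncalled with no filter (0.0673), with the replicate block (0.05004), and with only the 2 nuclei fitted (0.124), where *Oxtr* LH minus VMH, at -1.70, was uncalled too (0.107). Calls were gained by *Oxt* DMH minus Arc, at -6.70 with only the 2 nuclei fitted (0.0336), where the Arc alone had let it into the tests and no DMH array measured it, *Avpr1a* DMH minus Arc, at 2.09 without scaling (0.0382), and *Avp* without LH1 for LH minus Arc, at 2.98 (0.0107), LH minus VMH, at 4.02 (0.00608), and LH minus DMH, at 3.64 (0.0170). *Avpr1a* LH minus DMH changed sign to 0.061 with quantile normalization and 0.024 with normexp, and *Oxtr* DMH minus Arc to 0.26 without scaling.

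When each of the 8 arrays was omitted, *Avp* LH minus Arc ranged from -0.14 to 2.98, LH minus VMH from 0.90 to 4.02, LH minus DMH from 0.52 to 3.64, and DMH minus VMH from -0.13 to 0.89. *Oxt* LH minus Arc ranged from -4.44 to 1.82, LH minus VMH from -0.71 to 5.55, DMH minus Arc from -8.18 to -5.23, DMH minus VMH from -5.78 to -0.17, and LH minus DMH from 2.27 to 8.52. These *Oxt* values are fitted and include signals not well above background, of both DMH arrays, VMH1, and LH1. *Avpr1a* VMH minus Arc, fitted with a VMH that did not measure it, ranged from -3.25 to -2.55, LH minus Arc from 1.21 to 1.95, and LH minus DMH from -0.40 to 0.34. *Oxtr* DMH minus Arc ranged from -0.52 to 0.072, LH minus Arc from -1.67 to -1.08, and LH minus VMH from -1.97 to -1.42.

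The F-test called 2410 probes, 529 by the one-way analysis of variance and 897 to 3650 with arrays left out. Pair counts with arrays left out were 457 to 2476 for VMH against Arc (1712 with all), 135 to 619 for DMH against Arc (364), 751 to 3554 for LH against Arc (2700), 194 to 867 for DMH against VMH (590), 398 to 2744 for LH against VMH (1525), and 41 to 1361 for LH against DMH (267). The Tukey-Kramer test, in the same order, called 2, 4, 30, 3, 3, and 0 probes. Without scaling, LH against Arc, VMH, and DMH gave 1621, 834, and 167 calls, and with only the 2 nuclei fitted 823, 274, and 0. With no filter, LH against VMH gave 959 calls and LH against DMH 118, and the latter gave 411 with trended and robust moderation.

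The replicate numbers were not taken as pairing the arrays, since the sources do not state which arrays share a mouse. The deviations of arrays with the same number correlated at -0.03 to 0.26 over the 6 pairs of nuclei, which cannot decide it. With the replicate number as a block, the F-test called 2081 probes, and LH against DMH 161.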
